A study of Mus musculus with 26 samples.

Results

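Cluster 4 of the mouse RPE/choroid was the smallest of the 3 endothelial cell (EC) clusters and the one with the lowest *Kdr* level, and its members were taken from the cluster column that was deposited with the cells. It held 135 of 7565 cells, 63 of 3637 in the B6129PF1/J library and 72 of 3928 in the C57BL/6J library. RPE/choroid is the pigment epithelium behind the photoreceptors together with the vascular layer under it, and the study set out to sort its cells into types and to describe what its endothelium expresses. Each single-cell library came from animals aged 3 months, with 1 eye of a male and 1 eye of a female pooled, so that strain, library and animals cannot be told apart. The neural retina had been removed, and nucleated, viable cells had been sorted before droplet capture, which counts the RNA molecules of each cell as unique molecular identifiers (UMIs). Cluster 4 was set beside EC cluster 2, which had the highest *Kdr* level and held 370 and 403 cells, EC cluster 3, with 430 and 549 cells, and smooth muscle cluster 9, with 373 and 463 cells (B6129PF1/J and C57BL/6J, in that order here and below). Bulk RPE/choroid tissue from a further experiment of the study, with and without deletion of *Ihh* in ECs, is given at the end. That tissue came from mice aged 6 months, 12 weeks after tamoxifen, which both groups were given.

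Blood leaves the heart through arteries, whose endothelium bears high pressure and flow, passes capillaries, where exchange takes place, and returns through veins. Endothelium of each segment has genes of its own: Notch ligands, *Sox17* and gap junction proteins are known from arteries, *Nr2f2* and leukocyte selectins from veins. The capillary sheet of the choroid, the choriocapillaris, is pierced by pores that are bridged by the diaphragm protein encoded by *Plvap*, and it is kept by VEGF from the pigment epithelium, which acts through the receptor encoded by *Kdr*. Large choroidal arteries and veins run in the outer layers of the choroid, farther from that source.

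The cells of cluster 4 made up 1.73% (exact 95% interval 1.33 to 2.21) and 1.83% (1.44 to 2.30) of the libraries, and 7.30% (5.65 to 9.24) and 7.03% (5.54 to 8.77) of all ECs. Their median depth was 3915 and 2954 UMIs and 1722 and 1498 genes per cell, and the median mitochondrial share was 2.73% and 2.93%. Summed over its cells, cluster 4 held 327287 and 330899 UMIs. A level is given throughout as UMIs of a gene per 10,000 UMIs of the cluster in a library, with exact intervals that cover counting error only, and levels were compared between clusters within a gene, never between genes. The libraries shared 22 cell barcodes, of which 1 lay in cluster 4 in each library and 0 in both. The female transcript *Xist* and the male transcript *Ddx3y* were found together, the mark of a doublet of animals, in 1 cell of cluster 4 in B6129PF1/J and in 0 in C57BL/6J.

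The 5 marker genes of the cluster were all at their highest or among their highest levels there. *Bmx*, a tyrosine kinase gene known from arterial endothelium, lies at chrX:164192842-164258193 (GRCm38, minus strand). It measured 2.75 (2.21 to 3.38) and 3.48 (2.87 to 4.17) in cluster 4, from 90 and 115 UMIs, and these levels were 19.5 (13 to 29.9) and 8.14 (6.23 to 10.6) times those of cluster 3. In both libraries this was the highest *Bmx* level of the 13 clusters, and cluster 2 held 1 and 0 UMIs. *Sema3g*, which encodes a secreted semaphorin (chr14:31217860-31230352, plus strand), measured 3.67 (3.04 to 4.38) and 2.51 (2.00 to 3.11), which was 7.08 (5.46 to 9.17) and 5.88 (4.38 to 7.86) times cluster 3. *Mgp*, an inhibitor of BMP signaling and calcification (chr6:136872435-136875823, minus strand), measured 97.6 (94.2 to 101) and 112 (109 to 116), against 47.2 and 36.3 in cluster 3 and 3.04 and 4.88 in cluster 2. *Mgp* did not single out ECs, since stromal cluster 6 reached 156 and 133. The junction gene *Cldn5* (chr16:18776847-18778262, plus strand) measured 49.6 (47.2 to 52.0) and 49.4 (47.0 to 51.8), with ratios to cluster 3 of 2.64 (2.49 to 2.80) and 1.96 (1.86 to 2.07). *Pecam1*, the adhesion gene that marks all endothelium (chr11:106654217-106750628, minus strand), measured 7.58 (6.66 to 8.58) and 8.10 (7.16 to 9.13), with ratios of 2.08 (1.80 to 2.39) and 2.21 (1.92 to 2.53).

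**Figure D1:**
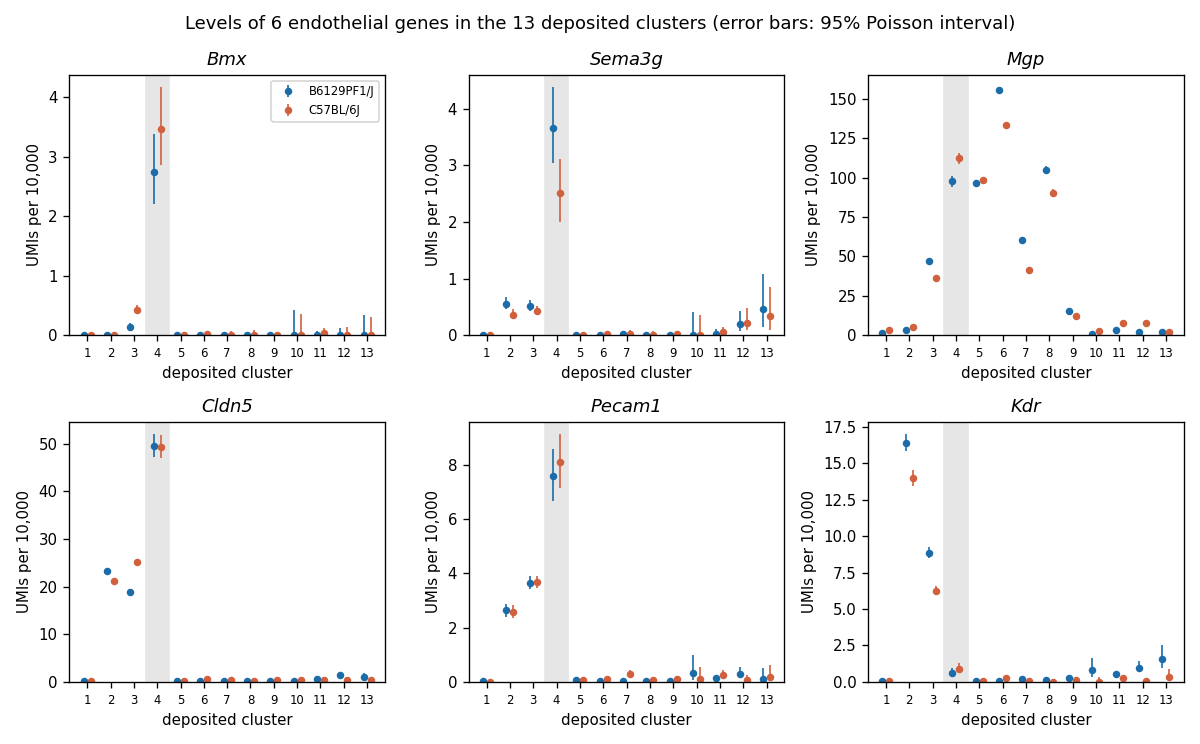
Levels of *Bmx*, *Sema3g*, *Mgp*, *Cldn5*, *Pecam1* and *Kdr* (y axis, UMIs per 10,000) in the 13 deposited clusters (x axis) in the B6129PF1/J (blue) and C57BL/6J (orange) libraries, with exact Poisson 95% intervals as error bars and cluster 4 shaded. *Bmx* and *Sema3g* stand out in cluster 4 in both libraries, *Mgp* is also high in stromal clusters 5 to 8, and *Kdr* is 0.611 and 0.907 in cluster 4 against 16.4 and 14 in cluster 2.

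The 5' flanks of *Bmx*, *Sema3g* and *Cytl1* are shown because the first pair are arterial genes among the markers and *Cytl1*, described below, was concentrated in few cells of the cluster. These are the 250 bases before the transcription start in RefSeq (GRCm38.p6), at chrX:164258194-164258443 (minus strand), chr14:31217623-31217872 (plus strand) and chr5:37735269-37735518 (plus strand). The start that GENCODE gives for *Sema3g* lies a few bases inside the stretch shown. Capitals mark the letters CACCC or GGGTG (the core that KLF factors are known to bind), ACAAT or ATTGT (SOX factors) and TGGGAA or TTCCCA (RBPJ, the DNA-binding partner of Notch), which do not overlap each other here:
Bmx: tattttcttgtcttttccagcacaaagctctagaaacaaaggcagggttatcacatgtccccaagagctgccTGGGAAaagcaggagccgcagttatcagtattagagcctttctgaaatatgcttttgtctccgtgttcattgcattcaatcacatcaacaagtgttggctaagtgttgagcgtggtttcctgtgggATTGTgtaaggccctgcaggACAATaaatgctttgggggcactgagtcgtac
Sema3g: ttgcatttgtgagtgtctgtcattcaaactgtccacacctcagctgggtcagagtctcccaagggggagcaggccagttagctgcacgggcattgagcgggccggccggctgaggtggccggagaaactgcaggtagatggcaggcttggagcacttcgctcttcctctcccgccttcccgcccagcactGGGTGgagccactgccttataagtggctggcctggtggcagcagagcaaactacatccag
Cytl1: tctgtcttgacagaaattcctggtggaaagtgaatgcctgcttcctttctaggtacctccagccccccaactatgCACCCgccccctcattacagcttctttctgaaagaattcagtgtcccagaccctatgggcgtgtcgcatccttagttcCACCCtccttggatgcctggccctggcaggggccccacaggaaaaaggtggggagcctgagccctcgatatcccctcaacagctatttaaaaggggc
The *Bmx* flank held a match to SOX letters at -32 and at -52 and one to RBPJ letters at -178, counted from the start. *Sema3g* had KLF letters at -60, and *Cytl1* had them at -97 and -175. Short letters of this kind are common. KLF letters were in 42 of 62 flanks (67.7%) of genes that were higher in cluster 4 than in clusters 2 and 3, in 57.1% of the 2589 flanks of all genes considered and in 52.0% of all 32851 flanks. For SOX letters the shares were 17.7%, 18.0% and 27.7%, and for RBPJ letters 19.4%, 19.9% and 21.6%, so that for both the share among cluster 4 genes was close to that of the genes considered. A match is a description of the letters and not a measured binding site.

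*Kdr* (chr5:75932827-75978458, minus strand), which names the cluster, measured 0.611 (0.373 to 0.944) and 0.907 (0.612 to 1.29) in cluster 4, from 20 and 30 UMIs. Cluster 2 was 26.9 (17.4 to 44.1) and 15.5 (10.8 to 22.9) times higher, and cluster 3 was 14.5 (9.36 to 23.8) and 6.91 (4.82 to 10.3) times higher. The cells were nonetheless as rich as the other ECs in *Cdh5*, the endothelial cadherin, at 4.46 and 4.17 in cluster 4 against 4 and 3.76 in cluster 2 and 4.64 and 4.12 in cluster 3. Of 16 pan-endothelial genes, 3 were at least 2 times higher than in cluster 2 in both libraries (*Pecam1*, *Cldn5* and the phosphatase gene *Ptprb*) and 3 were at least 2 times lower (*Emcn*, *Eng* and *Tie1*). The largest drop in that list was *Emcn*, which encodes a sialomucin of capillary and venous surfaces and measured 5.38 and 4.81 in cluster 4 against 34.5 and 34.7 in cluster 2 and 17.0 and 18.0 in cluster 3.

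Over all genes, 186 of 2970 considered (6.26%) were at least 2 times higher in cluster 4 than in cluster 2 in both libraries, and 199 (6.7%) were at least 2 times lower. A gene was considered when the mean level of the compared clusters reached 0.5 in each library, so that a gene absent from one cluster was in the count only through the other, and no test was made, since there was 1 library per strain and the clusters were drawn from these same genes. Against cluster 3, 95 of 2922 genes (3.25%) were higher and 96 (3.29%) lower. The counts of gene lists below are to be read beside these shares of all genes. Against both clusters together, 84 of 2788 genes (3.01%) were higher and 73 (2.62%) lower. Cluster 3 lay between clusters 2 and 4 in both libraries for 157 of the 186 higher genes (84.4%) and for 182 of the 199 lower ones (91.5%). These genes were picked for being far apart in clusters 2 and 4, which by itself favours a place between them for cluster 3. The shares are therefore a description only, and no share over all genes was set beside them. Across 3092 and 3162 genes, the level profile of cluster 4 had a rank correlation of 0.891 and 0.907 with cluster 3, 0.827 and 0.834 with cluster 2, and 0.571 and 0.595 with smooth muscle cluster 9, as a description of libraries that share depth and preparation.

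**Figure D2:**
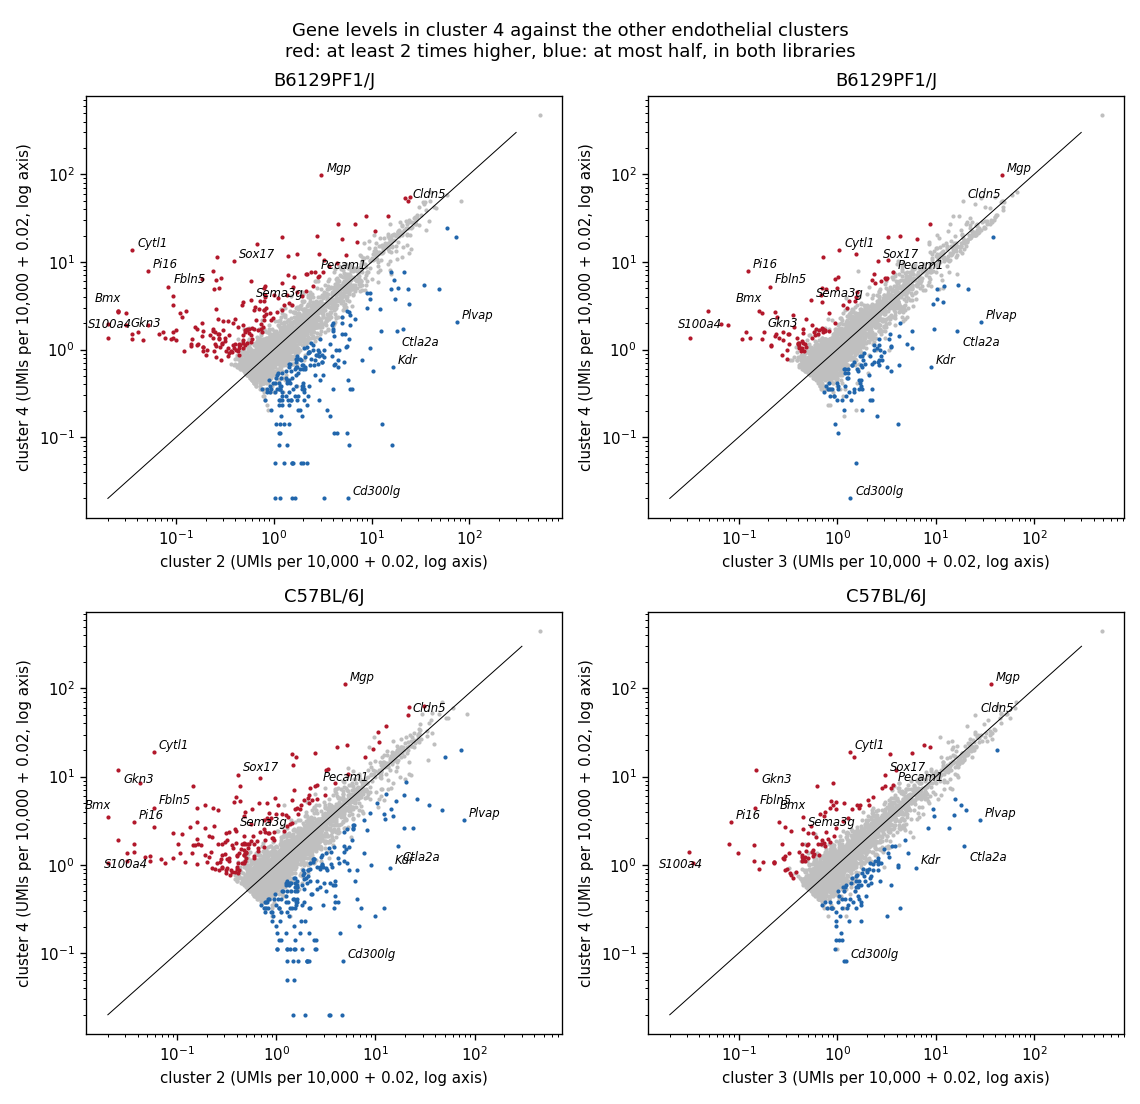
Level of each gene considered in cluster 4 (y axis) against cluster 2 or cluster 3 (x axis), in UMIs per 10,000 plus 0.02 on log axes, for both libraries, with equality as a line; red genes were at least 2 times higher and blue genes at least 2 times lower in cluster 4 in both libraries. *Cytl1*, *Pi16*, *Fbln5*, *Bmx* and *S100a4* lie far above the line, *Plvap*, *Kdr*, *Ctla2a* and *Cd300lg* far below it, and the cloud is tighter against cluster 3.

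Arterial genes were the group with the most members on the higher side. Of 20 genes listed, 16 were considered against cluster 2, of which 13 were higher and 1, the VEGF co-receptor gene *Nrp1*, was lower. Against cluster 3, 12 of 16 were higher and 0 lower. The median log2 ratio of the list was 3.79 and 3.67 over cluster 2 and 2.19 and 2.49 over cluster 3, beside medians over all genes of -0.03 and -0.04, and 0.03 and -0.00. The list was drawn up with earlier results of these data known, so its direction is no independent evidence. *Sox17*, a transcription factor gene of arterial identity, measured 10.1 (9.08 to 11.3) and 10.5 (9.44 to 11.7) in cluster 4, 2.57 and 3.06 in cluster 3 and 0.367 and 0.394 in cluster 2. *Gja4*, which encodes connexin 37, measured 5.04 and 3.96 against 0.974 and 0.735 in cluster 3, and its level in smooth muscle cluster 9 was similar, at 4.72 and 4.38. *Edn1*, the gene of the vasoconstrictor endothelin, measured 6.57 and 7.77 against 3.03 and 3.04 in cluster 3 and 0.268 and 0.126 in cluster 2. *Gja5*, the connexin 40 gene that defines many arteries, was too sparse to be considered, with 7 and 4 UMIs.

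In the Notch pathway a ligand on one cell activates a receptor on its neighbour. Of 16 genes, 9 were considered against each EC cluster, and the same counts held against both: 2 were higher, the ligand gene *Jag1* and the target gene *Hey1*, and 0 were lower. Over all genes considered, 6.26% were higher than in cluster 2 and 3.25% higher than in cluster 3. *Jag1* measured 1.71 and 2.27 in cluster 4, against 0.427 and 0.482 in cluster 3 and 0.22 and 0.29 in cluster 2. *Hey1* measured 1.53 and 2.39, against 0.435 and 0.323 in cluster 3. The ligand gene *Dll4* was at 1.34 and 1.39, close to the 1.23 and 1.38 of cluster 2, and the receptor gene *Notch1* was at 2.05 and 1.87 against 1.74 and 1.28. The target gene *Hes1* was at 10.9 and 9.49 against 18.3 and 19.9, short of the 2-fold limit in B6129PF1/J.

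Markers of veins were mixed. Of 14 venous genes listed, 5 were considered against cluster 2, with *Vwf* and *Vcam1* higher and *Nrp2* lower, and 7 against cluster 3, with *Vcam1* higher and 4 lower (*Nrp2*, *Lrg1*, *Cpe* and *Ptgs1*). The genes that define veins most closely were at or near 0 in cluster 4. *Nr2f2*, the venous transcription factor gene, had 6 and 10 UMIs, the chemokine receptor gene *Ackr1* had 0 and 0, the selectin genes *Sele* and *Selp* had 0 and 0, and 0 and 6, and *Aplnr* had 0 and 3. *Vwf*, the clotting factor gene of large vessels, measured 4.03 (3.37 to 4.78) and 2.66 (2.13 to 3.28) in cluster 4 and 4.16 and 2.98 in cluster 3, a ratio of 0.969 (0.802 to 1.16) and 0.892 (0.708 to 1.11). *Vwf* thus did not separate cluster 4 from cluster 3. *Ephb4* was considered and called on neither side of either EC cluster, and the list as a whole summed to 10.6 and 15.1 in cluster 4 and to 18.4 and 15.5 in cluster 3. *Vcam1* alone gave 2.66 and 8.52 of the sums in cluster 4, against 0.216 and 0.88 in cluster 3. In C57BL/6J, up to 76 of its 282 UMIs in cluster 4 came from 1 cell.

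The same was read cell by cell after each cell had been thinned to 1700 UMIs, a depth that every cell reached. At least 1 UMI of *Bmx*, *Sema3g* or *Gja5* was found in 40 of 63 cells of cluster 4 (63.5%, 50.4 to 75.3) and in 42 of 72 (58.3%, 46.1 to 69.8). The share was 10.0% and 12.2% in cluster 3 and 6.22% and 5.46% in cluster 2. Smooth muscle cluster 9, which should lack these genes and whose median depth was 4635 and 3803 UMIs, gave 0 of 373 cells and 0.864% of 463. Without thinning the share in cluster 4 was 85.7% and 84.7%. *Vwf* was found in 39.7% (27.6 to 52.8) and 34.7% (23.9 to 46.9) of cluster 4 cells, in 44.7% and 35.3% of cluster 3 cells and in 1.07% and 1.51% of cluster 9 cells. Of the cluster 4 cells with *Vwf*, 25 in each library, 18 and 12 also had an arterial UMI, so the arterial genes and *Vwf* did not exclude each other. Whether they overlapped more or less than unrelated genes would was not tested. *Nr2f2* was found in 2 cells of cluster 4 in each library (3.17% and 2.78%), against 12.8% and 7.83% in cluster 3. Summed over the arterial list, the cells of cluster 4 ran from 2 to 35 UMIs per 1700 with a median of 13 in B6129PF1/J, and from 3 to 34 with a median of 14 in C57BL/6J. The median in cluster 3 was 4 in each library.

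Genes of fenestrated capillaries were the group with the most members on the lower side. Of 14 listed, 10 were considered against cluster 2, with 8 lower and 0 higher, and 8 against cluster 3, with 6 lower and 0 higher. *Plvap* measured 2.02 and 3.17 in cluster 4, 28.8 and 28.0 in cluster 3 and 73.8 and 78.0 in cluster 2, which put cluster 2 at 36.6 (28.8 to 47.4) and 24.6 (20.3 to 30.1) times cluster 4. *Ihh*, the gene of the hedgehog ligand Indian hedgehog, had 0 UMIs in cluster 4 in both libraries against 3.20 and 3.36 in cluster 2, which was at least 34.9 and 37.0 times higher when 3 counts are taken as the floor. The exceptions were the water channel gene *Aqp1*, at 12.5 and 10.5 against 12.2 and 23 in cluster 2, and *Ehd4*, at 9.35 and 11.5 against 14.7 and 16.2.

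The 10 genes with the deepest drop below both EC clusters overlapped with that list in *Cd300lg*, *Plvap*, *Kdr* and *Rgcc*, and also held *Fam167b*, *Ptpru*, *Ctla2a*, *Car8*, *Pde2a* and *Hilpda*. *Cd300lg*, a receptor gene of capillary endothelium, had 0 and 2 UMIs in cluster 4 against levels of 1.33 and 1.20 in cluster 3 and 5.68 and 4.64 in cluster 2. *Ctla2a*, a cysteine protease inhibitor gene, measured 1.62 and 1.63 against 16.5 and 19.4 in cluster 3 and 18.0 and 16.8 in cluster 2. *Ctla2a* was thus about level in clusters 2 and 3 and low in cluster 4, unlike *Plvap* and *Kdr*, which stepped down from cluster 2 through cluster 3 to cluster 4.

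Of 10 VEGF ligand and receptor genes listed, 6 were considered against cluster 2, with 4 receptor genes lower (*Kdr*, *Flt4*, *Nrp1* and *Nrp2*) and 1 ligand gene higher, and 5 against cluster 3, with 2 lower (*Kdr* and *Nrp2*) and 1 higher. *Vegfc*, a ligand known for lymphatic growth, was the one that was higher, at 1.47 and 2.69 in cluster 4 against 0.22 and 0.278 in cluster 3 and 0.0158 and 0.0383 in cluster 2. *Flt1*, the decoy receptor gene, measured 7.24 and 7.46 against 15.7 and 14.4 in cluster 2 and 16.5 and 13.9 in cluster 3, short of the 2-fold limit in C57BL/6J. *Nrp1* measured 5.04 and 5.23 against 18.5 and 16.2 in cluster 2.

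**Figure D3:**
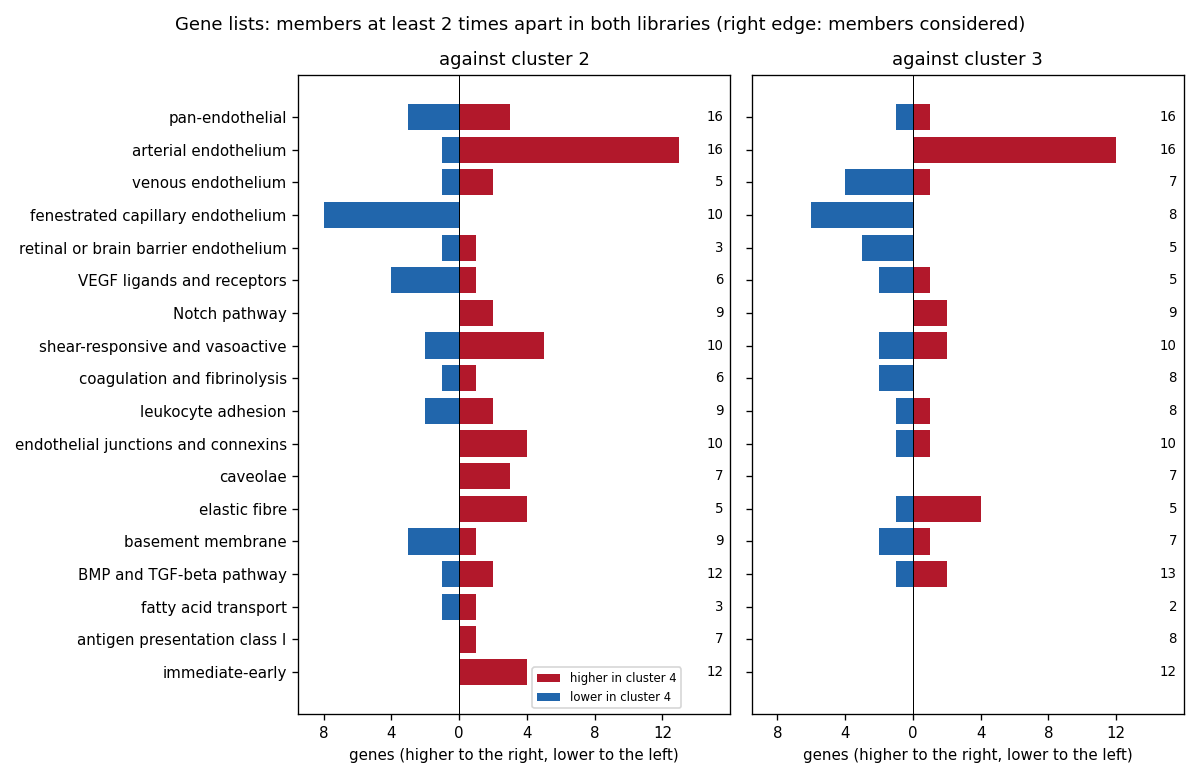
Number of genes in each list (x axis) that were at least 2 times higher (red, to the right) or lower (blue, to the left) in cluster 4 than in cluster 2 or cluster 3 in both libraries, with the number of members considered at the right edge. Arterial genes lie mostly to the right (13 and 12 of 16) and fenestrated capillary genes mostly to the left (8 of 10 and 6 of 8).

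Genes of the elastic fibre, the recoiling sheet under the endothelium of arteries, were higher in cluster 4 in most of the few members that were detected. Of 17 listed, 5 were considered, and *Eln*, *Fbln2*, *Fbln5* and *Ltbp4* were higher than in cluster 2 and than in cluster 3, while *Mfap2* was lower than in cluster 3. *Eln*, the elastin gene, measured 6.05 (5.24 to 6.95) and 5.92 (5.12 to 6.81), which was 2.20 (1.87 to 2.58) and 2.57 (2.18 to 3.02) times cluster 3. *Fbln5*, whose product organises elastin, measured 5.19 and 4.41, at 27.8 (19.9 to 39.6) and 35.0 (23.9 to 52.4) times cluster 3. *Ltbp4*, which tethers TGF-beta and helps to lay down elastin, measured 5.04 and 5.26 against 0.68 and 0.839. *Lox*, the crosslinking enzyme gene, stayed low at 0.0917 and 0.363. Of 15 basement membrane genes, *Col18a1* was higher than in both EC clusters, and *Col4a2* and *Hspg2* were lower than in both. Stromal marker genes summed to 1.07 and 0.967 in cluster 4 against 2.43 and 2.49 in cluster 3, and smooth muscle markers to 3.09 and 2.66 against 350 and 354 in cluster 9. In cluster 4, 1 and 0 cells had 3 or more smooth muscle UMIs.

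Genes that respond to flow and set vessel tone were higher than in cluster 2 in 5 of 10 considered and lower in 2, and against cluster 3 in 2 and 2. Over all genes, 6.26% were higher and 6.7% lower than in cluster 2, and 3.25% and 3.29% than in cluster 3. *Klf2*, the flow-induced transcription factor gene, measured 52.9 (50.5 to 55.5) and 63.1 (60.4 to 65.8) in cluster 4, which was 2.43 (2.29 to 2.57) and 2.05 (1.95 to 2.16) times cluster 2 and 1.84 (1.74 to 1.94) and 1.46 (1.39 to 1.53) times cluster 3. *Klf4* measured 22.3 and 20.3 against 10.7 and 9.46 in cluster 2, and *Nos3*, the endothelial nitric oxide synthase gene, 2.29 and 1.90 against 0.961 and 0.925. *Ace*, the angiotensin-converting enzyme gene, was above both EC clusters, at 1.44 and 1.66 against 0.576 and 0.471 in cluster 3. The endothelin receptor gene *Ednrb* had the opposite pattern to its ligand gene *Edn1*, at 0.733 and 0.393 in cluster 4, 2.65 and 1.64 in cluster 3 and 7.87 and 6.47 in cluster 2.

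Immediate-early genes, which are also induced when tissue is digested, were higher than in cluster 2 in 4 of 12 (*Fos*, *Atf3*, *Zfp36* and *Klf6*) and than in cluster 3 in 0 of 12. The shares over all genes were 6.26% and 3.25%. Their summed level was 217 and 239 in cluster 4, 198 and 205 in cluster 3 and 154 and 136 in cluster 2. *Klf2* and *Klf4* differed from cluster 2 in the same direction, and the part that digestion had in this was not tested.

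Junction and connexin genes were higher than in cluster 2 in 4 of 10 (*Cldn5*, *Tjp1*, *Jam2* and *Gja4*) and higher than in cluster 3 in 1 (*Gja4*), with *Gja1* lower. For this list and those that follow, the shares over all genes were 6.26% higher and 6.7% lower against cluster 2. Against cluster 3 they were 3.25% and 3.29%. With so few members, 1 called gene in a list was not read as a departure from these shares. Caveolar genes were higher than in cluster 2 in 3 of 7, including *Cav1* at 4.03 and 4.23 against 1.93 and 1.53, and 0 of 7 differed from cluster 3. In the BMP and TGF-beta list *Mgp* and *Tgfb2* were at least 2 times above both EC clusters (for *Mgp* against cluster 3 the smaller ratio was 2.07, and 1.91 with thinned cells or 1.88 as a mean over cells), and *Bmp4* was below cluster 3, at 0.336 and 0.121 against 0.999 and 1.11. *Id1*, a target gene of BMP, measured 27.3 and 25 against 15.2 and 15.2 in cluster 2 and 14.1 and 14.6 in cluster 3, below the 2-fold limit throughout. Among leukocyte adhesion genes *Vcam1* was higher and *Icam1* lower than in both EC clusters, with *Icam1* at 0.825 and 1.21 against 2.75 and 3.30 in cluster 3. Of genes known from the blood-retina barrier, 1 was higher (*Slc2a1*) and 1 lower (*Itm2a*) of 3 considered against cluster 2, and 0 were higher and 3 lower of 5 against cluster 3 (*Itm2a*, *Slco1a4* and *Lef1*). *Itm2a* measured 1.01 and 1.36 in cluster 4 against 5.79 and 5.22 in cluster 3. The glucose transporter gene *Slc2a1* measured 15.8 and 13.4 against 8.58 and 11.8 in cluster 3 and 0.646 and 1.46 in cluster 2, whereas *Mfsd2a* had a level of 0 and 0.0604. Class I antigen presentation genes were higher than in cluster 2 in 1 of 7 (*Psmb8*) and differed from cluster 3 in 0 of 8. Among coagulation genes *Tfpi*, the tissue factor inhibitor gene, was lower than in both EC clusters, at 0.336 and 0.302 against 0.833 and 0.854 in cluster 3, while *Serpine2* was lower than in cluster 3 and *Vwf* higher than in cluster 2. In the fatty acid list 1 was higher (*Fabp4*) and 1 lower (*Gpihbp1*) of 3 considered against cluster 2, and 0 of 2 were called against cluster 3. *Fabp4* measured 7.76 and 5.02 in cluster 4 against 0.22 and 0.783 in cluster 2, and *Gpihbp1* had 0 and 3 UMIs in cluster 4.

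The 15 genes with the largest excess over both EC clusters were *S100a4*, *Kcnn4*, *Plek2*, *Pi16*, *Prune2*, *Scara3*, *Eps8l2*, *Fbln5*, *St8sia6*, *Ssu2*, *Gkn3*, *Ptprj*, *Cytl1*, *Stmn2* and *Serpinf1*, of which *Fbln5*, *Gkn3*, *Cytl1* and *Stmn2* were also in the arterial list. *S100a4*, a calcium-binding protein gene, measured 2.72 and 1.39 from 89 and 46 UMIs, which was 93.7 (43.7 to 240) and 125 (40.1 to 628) times cluster 3. With thinned cells, and denominators under 3 counts set to 3, the smaller ratio over clusters 2 and 3 was 24.3 for *S100a4*, 22.4 for *Kcnn4*, 14.9 for *Plek2* and 8.53 for *St8sia6*, so the order within the 15 depends on depth. *S100a4* was not limited to cluster 4, since Schwann cluster 12 held 6.14 and 5.98. *Kcnn4*, a calcium-activated potassium channel gene, measured 1.34 and 1.03 from 44 and 34 UMIs, with 0 UMIs in cluster 2 in both libraries. *Pi16*, a peptidase inhibitor gene (chr17:29317680-29330593, plus strand), measured 7.79 (6.86 to 8.81) and 3.02 (2.46 to 3.68), at 75.2 (49.8 to 118) and 47.9 (28.5 to 85.5) times cluster 3, and was higher still in stromal cluster 7, at 10.6 and 24.6. *Serpinf1*, the gene of pigment epithelium-derived factor, measured 1.34 and 1.66 and also had more in stromal cluster 7, at 17.7 and 18.0. *Stmn2*, a microtubule regulator gene, measured 11.5 (10.3 to 12.7) and 7.86 (6.93 to 8.87), at 16.4 (13.6 to 19.7) and 12.9 (10.6 to 15.8) times cluster 3. *Cytl1*, the gene of a small secreted protein (chr5:37735519-37739820, plus strand), measured 13.6 (12.3 to 14.9) and 18.9 (17.4 to 20.4), at 13.1 (11.2 to 15.3) and 14.3 (12.6 to 16.4) times cluster 3. With every cell thinned to the same depth, the smaller *Cytl1* ratio was 6.29. When smooth muscle cluster 9 was added to the comparison, *Kcnn4*, *Plek2*, *Pi16*, *Prune2* and *Eps8l2* led.

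Against smooth muscle cluster 9, 488 of 2790 genes (17.5%) were higher in cluster 4 and 296 (10.6%) lower. Smooth muscle cells are known to wrap arteries and larger veins. The median log2 ratio over all genes was 0.24 and 0.19, and it was 0.02 and 0.01 after median-of-ratios scaling, under which 395 genes were higher and 350 lower. Of the arterial list, 11 of 16 were higher and 0 lower, and *Gja4*, *Hey1*, *Jag1*, *Efnb2* and *Nrp1* were on neither side. *Jag1* measured 1.71 and 2.27 in cluster 4 against 1.04 and 1.69 in cluster 9. All 10 smooth muscle markers were lower in cluster 4. Pericyte markers summed to 1.5 and 1.99 against 102 and 107, hematopoietic markers in cluster 4 to 0.0306 and 0.242, and RPE markers to 6.23 and 6.53, near the 7.00 and 5.19 of cluster 3. Markers of lymphatic endothelium summed to 0.275 and 0.393, with *Prox1* at 0, those of erythrocytes and platelets, Schwann cells, melanocytes and photoreceptors each to 0.211 or less, and cell cycle genes to 0.733 and 1.15.

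The cells of cluster 4 differed among themselves. *Klf2* was found in 98.4% and 100% of thinned cells and *Sox17* in 69.8% and 81.9%, but *Cytl1* in 30.2% and 31.9%, and the 10 cells with the most *Cytl1* held 81.1% and 79.6% of its UMIs. *Pi16* was found in 41.3% and 20.8% of cells, of which the 10 highest held 70.3% and 88.9%. In B6129PF1/J, *Cytl1* and *Pi16* were found together in 9 cells, *Cytl1* alone in 10, *Pi16* alone in 17 and neither in 27, and in C57BL/6J together in 2, alone in 21 and 13, and neither in 36. Over the cells of a library, which share their preparation, *Cytl1* had a rank correlation of 0.57 and 0.44 with *Eln* and of -0.53 and -0.40 with *Aqp1*, and *Pi16* one of 0.61 and 0.40 with *S100a4*. These pairs were chosen after their values were seen.

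When the 135 cells were clustered on their own, 6 subclusters resulted, each with cells of both libraries, numbered by size (34, 28, 22, 20, 19 and 12 cells). Their leading genes were what separated them, so the values below describe them and test nothing, and the genes named were chosen after these values were seen. Subcluster 3 had 11 cells in each library. It held *Cytl1* at 69.1 (62.3 to 76.5) and 70.5 (64.8 to 76.6), *Eln* at 18.0 and 14.4 and *Mgp* at 247 and 229, and its arterial list summed to 140 and 141. Its 22 cells stayed together with 2000 variable genes and when immediate-early genes were left out. At a lower resolution its cells also stayed together, but in a set of 36 that held all 12 cells of subcluster 6 as well, so subclusters 3 and 6 were not separate there. Subclusters 5 and 6 held most of the *Pi16*, at 16.2 and 11.5 and at 40.9 and 17.6, with *S100a4* at 6.16 and 5.95 and at 11.9 and 6.03. The fatty acid carrier gene *Fabp4* was also high there, at 15.9 and 10.4 and at 48.5 and 26.1, although subcluster 6 had only 3 cells in B6129PF1/J. In subcluster 5, RPE markers summed to 3.62 and 23.6 and stromal markers to 2.74 and 0.661, and in subcluster 6 to 5.11 and 4.52 and to 0 and 0, and their part in these levels was not tested. Subclusters 1 and 2 had the highest sums over the fenestrated capillary list, 53.1 and 44.1 and 38.9 and 44.9, and subcluster 1 had *Plvap* at 5.62 (3.87 to 7.89) and 10.1 (7.42 to 13.4), *Emcn* at 14.6 and 11.4 and *Aqp1* at 29.3 and 17.2. Subcluster 4 had the highest *Slc2a1*, at 46.2 and 34.0. *Sox17* was present in all 6, from 7.66 to 20.4 in B6129PF1/J and from 7.32 to 15.9 in C57BL/6J. Immediate-early genes summed to 62.8 and 35.0 in subcluster 1 and to 38.3 and 48.2 in subcluster 6, against 309 and 293 in subcluster 2 and 305 and 365 in subcluster 5, and without them 7 subclusters formed. The part that the tissue digestion had in these subclusters was not tested.

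**Figure D4:**
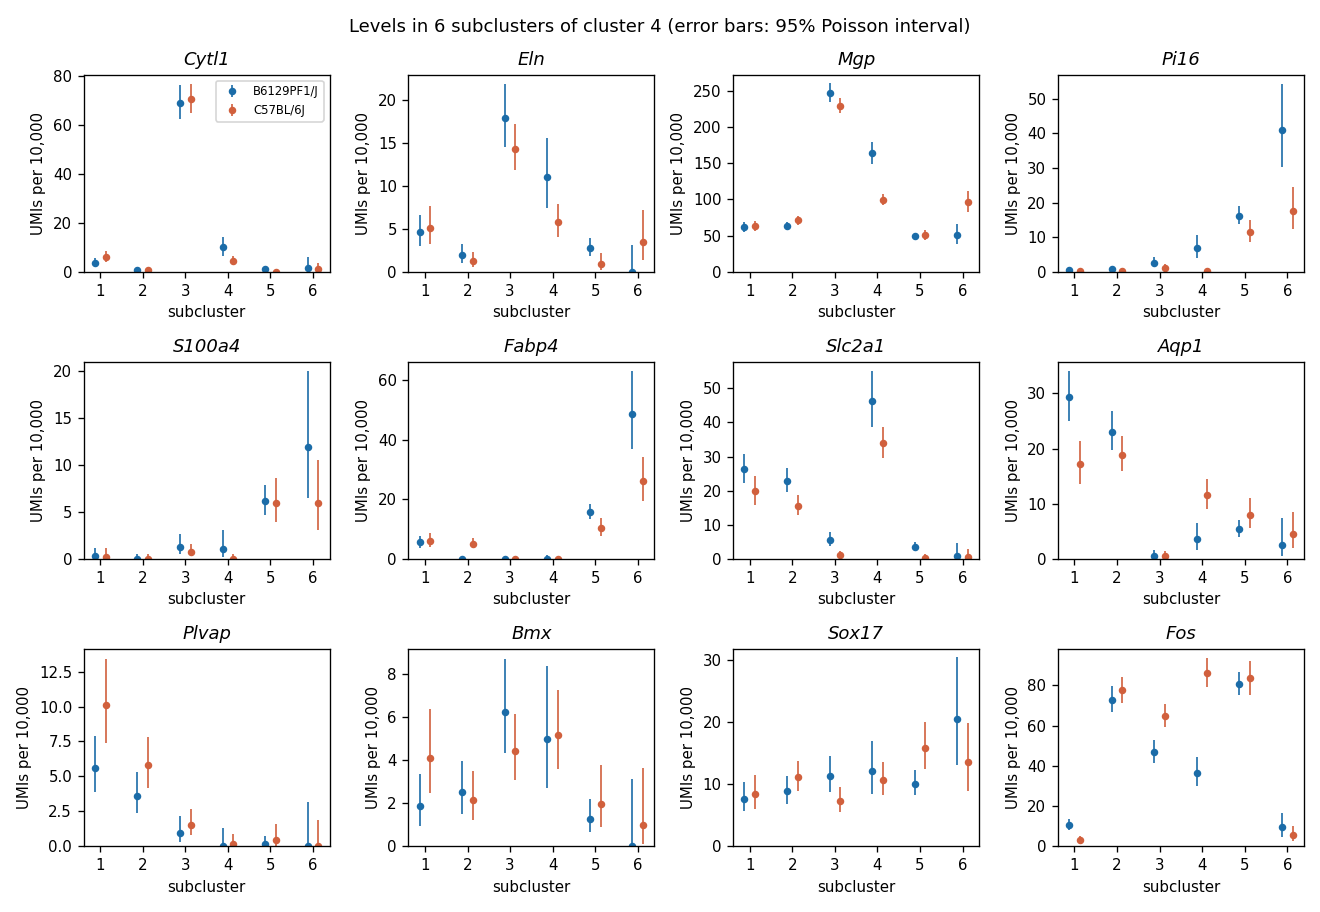
Levels of 12 genes (y axis, UMIs per 10,000) in the 6 subclusters of cluster 4 (x axis) in the B6129PF1/J (blue) and C57BL/6J (orange) libraries, with exact Poisson 95% intervals. *Cytl1* peaks in subcluster 3 (69.1 and 70.5), *Pi16* and *Fabp4* rise in subclusters 5 and 6, *Slc2a1* peaks in subcluster 4, *Plvap* in subcluster 1, and *Sox17* is present in all.

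Between the strains, 40 of 3197 genes (1.25%) were at least 2 times higher in B6129PF1/J within cluster 4 with an interval outside 1, and 55 (1.72%) were higher in C57BL/6J. With 1 library each these compare the libraries and not the strains. Of the 40 and 55 genes, 6 and 4 lay at least 2-fold to the same side in clusters 2 and 3 as well, by the ratio alone and without regard to its interval. The largest ratios belonged to predicted genes, which can share reads with near-identical copies and whose counts are therefore uncertain. *Gm10116* had 389 against 8 UMIs, *Gm10709* 118 against 1 and *Gm8797* 126 against 7, all higher in B6129PF1/J, and *Gm10116* differed to a similar degree in clusters 2, 3 and 9 (34.3, 34.4 and 35.6 times). *Gm10709* (42.7, 40.4 and 26.3 times) and *Gm8797* (14.6, 11.6 and 10.8 times) were also higher in B6129PF1/J in those clusters. Higher in C57BL/6J were *Igtp* (7 against 43 UMIs) and *Iigp1* (17 against 85), genes of interferon-induced GTPases, and *Nudt14* (6 against 32). For the GTPase genes the difference was not limited to cluster 4. The ratio of B6129PF1/J to C57BL/6J was 0.43, 0.516 and 0.489 for *Igtp* in clusters 2, 3 and 9. It was 0.281 and 0.628 for *Iigp1* in clusters 2 and 3, and 0.971 and 0.917 for *Nudt14*. *Ifi27l2a* and *Spp1* were also higher in cluster 4 of C57BL/6J, with 38 and 36 UMIs, of which 30 and 28 came from 1 cell each.

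Genes high in cluster 4 also differed between the libraries, and 3 were picked out after their values were seen. *Gkn3*, an arterial gene of the gastrokine family, had 84 UMIs in 23 of 63 cells in B6129PF1/J and 394 UMIs in 44 of 72 cells in C57BL/6J, a ratio of 4.64 (3.66 to 5.94), with up to 95 UMIs in 1 cell. *Vcam1*, the leukocyte adhesion gene, had 87 against 282 UMIs, a ratio of 3.21 (2.51 to 4.13), with up to 76 in 1 cell. *Vcam1* lay to the same side in cluster 3, at levels of 0.216 and 0.88. In cluster 2 its levels, 0.00525 and 0.0219, were too near 0 to tell, as the interval of the ratio of B6129PF1/J to C57BL/6J ran from 0.0049 to 2.42. *Pi16* went the other way, with 255 against 100 UMIs, 2.58 (2.04 to 3.28) times higher in B6129PF1/J, with up to 47 in 1 cell. All of these stayed far above clusters 2 and 3 in each library, as *Gkn3* did at 16.7 (11.2 to 25.4) and 91.7 (64.8 to 134) times cluster 3.

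**Figure D5:**
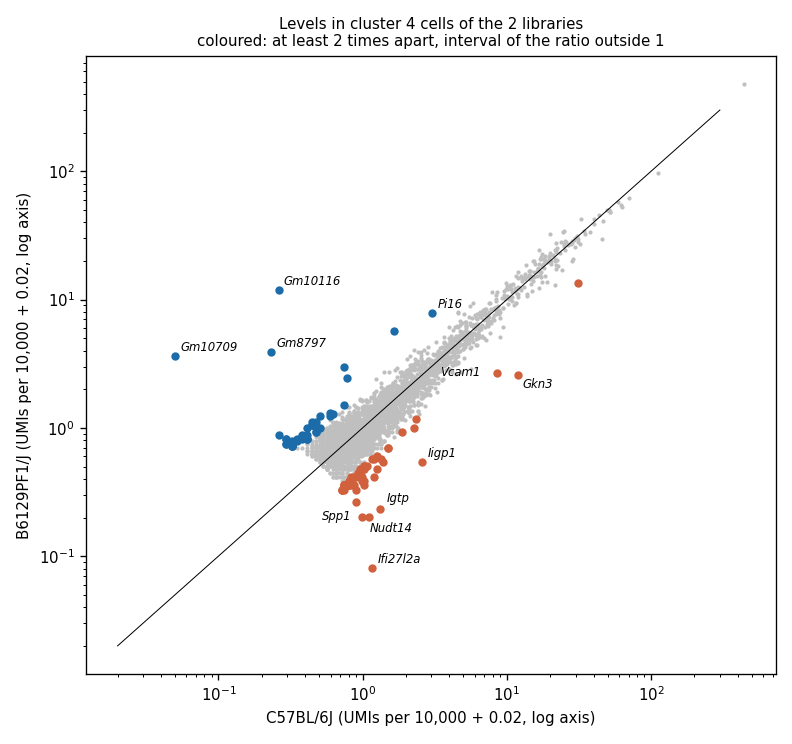
Level of each gene considered in cluster 4 cells of B6129PF1/J (y axis) against C57BL/6J (x axis), in UMIs per 10,000 plus 0.02 on log axes; coloured genes were at least 2 times apart with the 95% interval of the ratio outside 1 (40 higher in B6129PF1/J in blue, 55 higher in C57BL/6J in orange). *Gm10116*, *Gm10709* and *Gm8797* lie far from the line on one side, *Gkn3* and *Vcam1* on the other.

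The genes of cluster 4 were last looked up in bulk RPE/choroid tissue of C57BL/6J mice aged 6 months, 12 weeks after tamoxifen, with 3 libraries per group, whose files hold the authors' mean values only, so that no spread could be given. The deleted animals carried Cdh5-CreERT2, a tamoxifen-inducible recombinase driven in all endothelium, and loxP-flanked *Ihh*, and the control littermates carried the same recombinase with intact *Ihh* and were given tamoxifen too. Mean *Ihh* was 1.53 FPKM in controls and 0.454 in deleted animals. Of the 84 genes above clusters 2 and 3, 75 reached 1 FPKM in either group, and their median log2 ratio of deleted over control was -0.02, beside -0.04 over all 11411 genes. *Sema3g* was at 6.23 in controls and 6.68 FPKM in deleted animals, *Cytl1* at 8.18 and 8.24, *Bmx* at 0.847 and 0.679, *Sox17* at 3.49 and 2.32 and *Gkn3* at 3.67 and 2.59. In such tissue fewer cells of a type and less RNA per cell cannot be told apart, and *Pi16*, at 32.0 and 32.0, is also a stromal gene.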

How the data were processed

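Both single-cell libraries were made on the 10x Genomics platform. The authors aligned the reads to mm10 with Cell Ranger, filtered cells on UMIs, genes and mitochondrial share, and clustered them with Seurat 2.1 at resolution 0.8. The deposited single-cell tables hold raw UMI counts for 16426 genes in 3637 and 3928 cells (17168578 and 15230413 UMIs). The deposited metadata give the cluster and, as a fraction, the mitochondrial share of each cell. For bulk tissue the authors deposited mean FPKM values per group, which were copied as the authors' means. Deposited columns of fold changes, adjusted p-values and cluster markers hold the authors' own comparisons and were not used. The other bulk experiments were not used here.

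From these, UMIs were summed per cluster and library and scaled to 10,000. Levels have exact Poisson, shares exact Clopper-Pearson and ratios exact conditional binomial 95% intervals, all for counting error only. A gene was called when at least 2 times apart in both libraries, among genes with a mean level of at least 0.5. For calls and folds, a count under 3 was set to a floor of 3 counts, while ratios with intervals used the counts themselves. For shares of cells, each cell was thinned to 1700 UMIs. Cells are not replicates, so clusters and strains were described and not tested. Named genes were the 5 markers, the 15 with the largest fold over the higher of clusters 2 and 3 (at least 20 UMIs), the 10 deepest below the lower of them (level at least 1 in both), the 5 highest over clusters 2, 3 and 9, members of the gene lists and up to 8 genes apart between strains, with others said to be chosen after values were seen. Members and lists were chosen with earlier results of these data known. Subclusters came from scanpy 1.11.5 (1000 variable genes, 10 components, 15 neighbours, Leiden resolution 1). No doublet caller was run. Coordinates are from GENCODE M21, flanks from RefSeq GRCm38.p6 (62 of 84 genes matched). Scripts used scipy 1.17.1, numpy 2.4.6 and pandas 2.3.3 in Python 3.11.15, with plots from matplotlib 3.10.9. The counting was tested on simulated data. Alternatives were other level minima, fold limits, scaling, thinning and cell-wise means.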

Additional observations from a re-analysis of the deposited data

How the results depend on the processing

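No ratio of a named gene changed direction under any alternative run, and 68 main values and 131 values of named genes stayed close while 30 and 19 moved. Direction was not checked for counts, and the side with more genes did change. Against cluster 2 it was the lower side (186 higher and 199 lower), and the higher side with a minimum of 0.25, with none and with a limit of 3 times. Against cluster 3 (95 higher and 96 lower) the higher side led with no minimum and with a limit of 3 times. No paired analysis was possible because no result came from a test: clusters were compared by ratios taken within each library, the strains had 1 library each and the bulk files hold group means only. Counts of genes followed the minimum level, since lower minima admit more genes. Higher and lower than cluster 2, cluster 3 and cluster 9, they were 310 and 299, 161 and 182, and 811 and 469 with a minimum of 0.25, 106 and 115, 55 and 56, and 267 and 178 with a minimum of 1, and 674 and 452, 437 and 307, and 1693 and 792 with none. A limit of 3 times gave 113 and 109 against cluster 2 and 46 and 33 against cluster 3. Venous genes above cluster 2 numbered 4 with a minimum of 0.25 or none. Genes apart between the strains numbered 8 and 9 (higher in B6129PF1/J and in C57BL/6J) with a minimum of 1. Cells of cluster 4 with arterial UMIs made up 85.7% and 84.7% without thinning and 36.5% and 30.6% when 2 UMIs were asked for. The smaller ratio of *Mgp* to cluster 3 fell under the 2-fold limit, at 1.91 with thinned cells and 1.88 as a mean over cells. Thinning took the smaller ratio of *Serpinf1* to 18.0. The 327287 and 330899 UMIs of cluster 4 limit what can be said of genes below a level of 0.5.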
